A study of Saccharomyces cerevisiae with 10 samples.

Results

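The change of translational efficiency between [PSI+] and [psi-] yeast was followed gene by gene in 3906 genes. Translational efficiency (TE) is the level of ribosome footprints of a gene relative to the level of its mRNA, and its change is the footprint change minus the mRNA change on the log2 scale. A gene was taken from the 6608 counted features when it had a mean of 10 or more reads over the 4 footprint libraries and 50 or more reads in each of the 2 mRNA libraries. All 3906 were among the 5437 features that passed the filter on low counts and were tested together. Of the 1531 tested features left out, 797 fell short of the mRNA minimum in both strains, 228 in [PSI+] alone, 447 in [psi-] alone, and 59 had too few footprints. Genes whose mRNA was low in 1 strain alone are therefore missing, among them genes with an mRNA change of 2-fold or more.

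A gene whose mRNA changes can pass the change on to its ribosomes, cancel it or enlarge it. Footprints are the stretches of mRNA that ribosomes shield from nuclease, so their number over a gene follows both how much mRNA there is and how densely ribosomes load it. [PSI+] is a heritable aggregated form of Sup35, the yeast release factor eRF3, which frees finished proteins at stop codons together with eRF1 (Sup45), and cells that carry the prion read through stop codons more often than [psi-] cells. Its aggregates are passed on to daughter cells with the help of the disaggregase Hsp104.

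The 4 groups were footprints of [PSI+] (2 libraries), footprints of [psi-] (2 libraries, PSI- in the labels), mRNA of [PSI+] (1 library) and mRNA of [psi-] (1 library). All were Saccharomyces cerevisiae strain 74D694, a laboratory line, grown in rich medium (YPD) at 30 °C and harvested at an OD600 between 0.6 and 0.8, and cycloheximide, which halts elongating ribosomes, was given to the cells of every group. The labels call both an isogenic variation and do not say whether each is 1 clone or whether footprints and mRNA came from the same cultures. The a mating type genes were read in both (STE2 gave 472 to 757 footprint reads a library), while the alpha gene STE3 gave 5 to 21.

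Footprint libraries held 2497170 and 3257673 reads in [PSI+] and 3461402 and 3579039 in [psi-], and the mRNA libraries 5494957 and 2480012. Both [psi-] footprint libraries were close to each other (the SD of their log2 ratio over the 3906 genes was 0.21), with a chi-square of 1.283 per degree of freedom where counting noise alone gives 1. Both [PSI+] libraries were farther apart (SD 0.48). With 1 mRNA library per strain, the mRNA change has no replicate check. Its median counting error was 0.12 on the log2 scale (at most 0.28), against an SD of 1.28 among genes. The TE test took its spread from the footprint libraries, and the mRNA libraries are assumed to vary as they do. Any error of an mRNA ratio enters the TE change with the opposite sign, which by itself moves genes toward the class called buffered below. How much it does so was not tested.

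Among the 3906 genes, TE rose in [PSI+] in 683 and fell in 907 (edgeR's quasi-likelihood test of the interaction of library kind and strain, Benjamini-Hochberg adjusted p under 0.05 over all 5437 features). In percent, 17.5% of these genes rose and 23.2% fell, against 17.9% and 20.5% of all features tested (38.4% in either direction). The middle of the distribution was near 0 (median -0.08, quartiles -0.90 and 0.71), and single genes ran from -4.84 (RPL23B) to 4.01. The counts depend on single libraries, since a fit without a [PSI+] footprint library takes its spread from the close [psi-] pair, and one without a [psi-] library takes it from the [PSI+] pair. Over all features, 974 rose and 1113 fell with every library, 1574 and 1799 without [PSI+] footprint replicate 1, 1506 and 1763 without [PSI+] replicate 2, 428 and 568 without [psi-] replicate 1, and 436 and 549 without [psi-] replicate 2. The split depends on the scaling too: of the called features 46.7% rose with TMM factors, 52.7% under RLE and 61.4% under upper-quartile scaling, and the median TE change of all features was 0.02, 0.13 and 0.29. With no filter on low counts 36.7% rose, and 25.5% did in DESeq2, which changes the test, the filter and the factors together.

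The measured mRNA levels differed more between the strains than footprint levels did, with 1 mRNA library per strain against 2 footprint libraries. How much of the larger mRNA spread comes from the single libraries was not tested. At least 2-fold more mRNA in [PSI+] was found for 798 genes (20.4%) and at least 2-fold less for 703 (18%), against 20.9% and 23.3% of all features tested, while footprints differed by 2-fold or more in either direction in 600 (15.4%). The SD of the change over genes was 1.28 for mRNA and 0.89 for footprints. Across the 3906 genes, which are not independent replicates, the footprint change correlated with the mRNA change (r = 0.39, no shared library). The least-squares slope was 0.27 for footprint on mRNA change and 0.57 for mRNA on footprint change.

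Of the 703 genes with less mRNA, 490 also had fewer footprints and 192 at least 2-fold fewer. Of the 798 with more mRNA, 479 had more footprints, and 43 at least 2-fold more. Losses of mRNA beyond 8-fold (65 genes, log2 under -3) came with a median footprint change of -2.92, those from -3 to -2 (157 genes) with -0.82, and those from -2 to -1 (481 genes) with -0.20. Gains from 1 to 2 (580 genes), 2 to 3 (169 genes) and over 3 (49 genes) came with medians of 0.14, 0.24 and 0.12. Read from the footprints, the 48 genes whose footprints fell below a log2 change of -3 had a median mRNA change of -3.52. The 198 genes with a footprint gain of 1 to 2 had a median mRNA change of 0.22.

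The genes were put in classes by both changes. Among genes with an mRNA change of 2-fold or more, TE called in the opposite direction makes a gene buffered, or reversed where the footprints moved against the mRNA by 2-fold or more. TE called in the same direction makes it amplified. A gene is kept where TE was not called and the 95% interval of its change lay within 2-fold either way, and undecided otherwise. With an mRNA change under 2-fold, a gene is footprint-led where TE was called and the footprint change reached 2-fold. Of the genes with less mRNA, 55.9% were buffered, 31.4% undecided, 6.26% kept, 3.41% amplified and 2.99% reversed. Of those with more mRNA, 72.1% were buffered, 20.9% undecided, 4.14% reversed, 2.76% kept and 0.125% amplified.

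**Figure D1:**
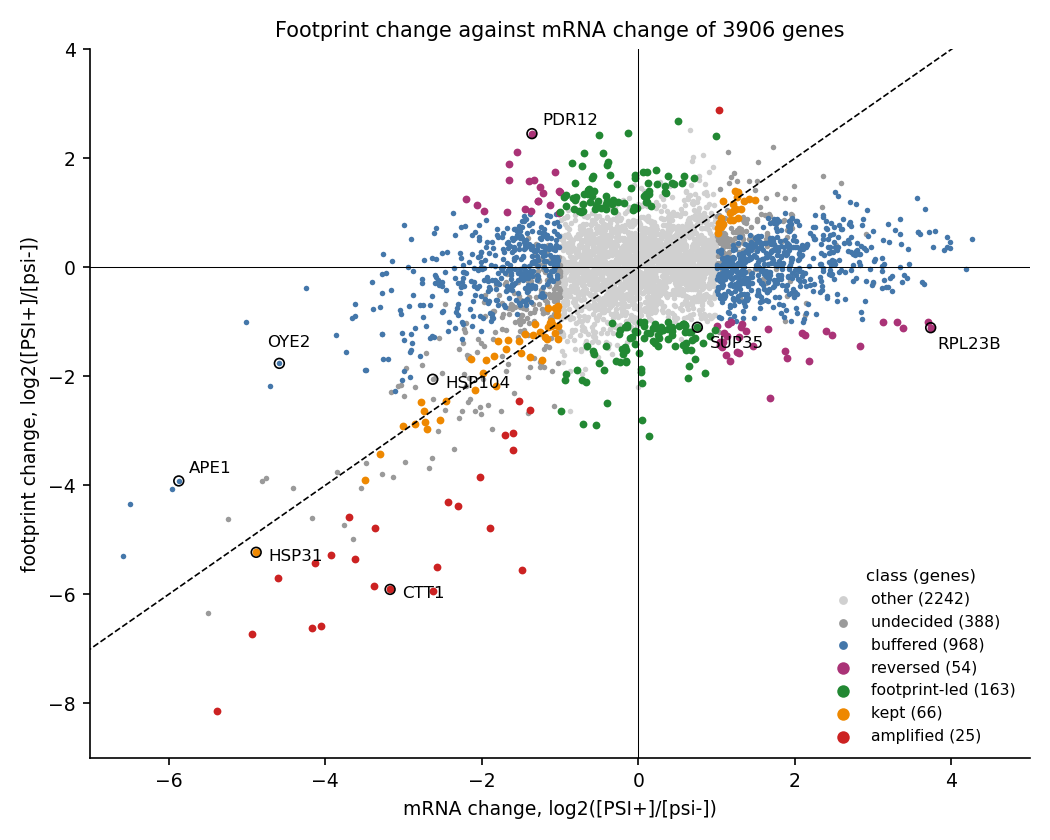
Each point is 1 of 3906 genes, with the mRNA change on the x axis and the footprint change on the y axis, both as log2 of [PSI+] over [psi-], coloured by class. The dashed line marks equal changes. The 968 buffered genes lie along the horizontal axis on both sides, while the 24 amplified genes with less mRNA lie under the dashed line at the lower left.

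SUP35, which encodes the prion protein itself, had fewer footprints and more mRNA in [PSI+]. Its footprints stood at 315 and 306 CPM (reads scaled to a common library size with TMM factors) in the [PSI+] libraries and at 671 and 661 in the [psi-] libraries. Its mRNA stood at 528 CPM in [PSI+] and 313 in [psi-], a log2 change of 0.75 (95% counting interval 0.65 to 0.86). Both [PSI+] footprint values lay below both [psi-] values, and the mRNA lay the other way. The footprint change was -1.10 ± 0.12 (SE) and TE fell by 1.85 ± 0.20 (adjusted p = 0.0037), which passed the threshold under every alternative run.

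SUP45, the partner of Sup35 in termination, gave 452 and 384 footprint CPM in [PSI+], 359 and 358 in [psi-], and 160.4 against 138 mRNA CPM. Its TE change was 0.01 ± 0.23 (adjusted p = 0.983, 95% interval -0.57 to 0.59). HSP104 was far lower in [PSI+] at both levels, with 469 and 532 against 2066 and 2095 footprint CPM and 530.5 against 3276 mRNA CPM. Its footprints fell by 2.05 ± 0.14 (adjusted p = 0.000783) with an mRNA change of -2.63, and its TE change of 0.57 ± 0.24 did not pass (adjusted p = 0.106, interval -0.01 to 1.16), so it is undecided. The rise was called with upper-quartile factors (adjusted p = 0.0341), with the [PSI+] runs kept separate (0.0332), without [PSI+] footprint replicate 1 (5.38e-06) and without [PSI+] replicate 2 (9.63e-05), and HSP104 would then be buffered.

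The mRNA change was kept in 66 genes, 44 with less and 22 with more mRNA. Footprint changes were called in all of them. The direction of these changes, that of the mRNA, and their closeness to the mRNA change follow from the rule of the class. The medians were -1.47 for mRNA and -1.35 for footprints among the former, and 1.21 and 1.02 among the latter. HSP31, a stress-induced chaperone and methylglyoxalase, had 30.2 and 31.0 footprint CPM in [PSI+] against 1149.8 and 1150.0, and 45.4 against 1339 mRNA CPM. The strains lay far apart at both levels, with changes of -4.88 for mRNA and -5.23 for footprints, and the TE change was -0.35 ± 0.21 (adjusted p = 0.242).

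In the pairs of values that follow, [PSI+] comes first. GSY2, a glycogen synthase, had 17.9 and 18.2 against 282 and 259 footprint CPM and 178 against 2015 mRNA CPM (TE change -0.40 ± 0.22, adjusted p = 0.196). SSE2, a nucleotide exchange factor of Hsp70, had 44.4 and 50.7 against 372 and 351 footprint CPM and 43.0 against 347 mRNA CPM (TE change 0.09 ± 0.22, adjusted p = 0.771). In both genes the footprint libraries of the strains were far apart and the changes of mRNA and footprints close, -3.50 and -3.90 for GSY2 and -3.01 and -2.92 for SSE2.

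The kept genes with more mRNA changed less. UTR2, a cell wall transglycosylase, had 97.8 and 76.7 against 36.6 and 37.4 footprint CPM, with 234 against 83.2 for mRNA. MSS116, a mitochondrial RNA helicase, had 119 and 141 against 49.3 and 59.6, with 229 against 85.8 for mRNA. TPN1, a plasma membrane vitamin B6 importer, had 251 and 293 against 116 and 119, with 706 against 277 for mRNA. All 4 of the footprint values stood apart by strain in each gene, and the TE changes ran from -0.26 to -0.14 (adjusted p from 0.479 to 0.665). A fall in TE was called for UTR2 without [PSI+] footprint replicate 1 (adjusted p = 0.0204) and for TPN1 without [PSI+] replicate 2 (0.0324). The kept class depends on the precision of the test: it held 2 genes without [psi-] footprint replicate 1, 3 without [psi-] replicate 2, 101 without [PSI+] replicate 1, 97 without [PSI+] replicate 2 and 2 with a fixed biological coefficient of variation of 0.2.

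The buffered class held 968 genes, 393 with less and 575 with more mRNA. Their median mRNA changes were -1.65 and 1.74, and their median footprint changes -0.07 and 0.04. Footprints were not called in 267 of the former and 435 of the latter, and moved by under 2-fold in 354 and 568. Over all features tested, footprints were called higher in 13.8% and lower in 17.9%. Of all 3906 genes, 15.4% had footprints that moved by 2-fold or more. Genes whose footprints moved against the mRNA by 2-fold or more are left out of the buffered class by its rule. The count was 560 without [psi-] footprint replicate 2 and 566 without [psi-] replicate 1.

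SPO24, a small sporulation protein, had 993 and 1146 against 737 and 756 footprint CPM, while its mRNA stood at 35.0 against 262 CPM. Footprints were higher in both [PSI+] libraries and mRNA lower, and TE rose by 3.42 ± 0.25 (adjusted p = 0.00307). RPM2, the protein subunit of mitochondrial RNase P, had 36.3 and 31.3 against 22.6 and 18.4 footprint CPM with 31.0 against 186 mRNA CPM (TE 3.3 ± 0.29, adjusted p = 0.00312). ARE2, a sterol acyltransferase, had 395 and 525 against 295 and 300.3 footprint CPM with 26.5 against 162 mRNA CPM (TE 3.24 ± 0.31, adjusted p = 0.00329). In these 3 genes both [PSI+] footprint values lay above both [psi-] values and the rise was called (adjusted p = 0.0349, 0.0367 and 0.0371), while the mRNA changes were -2.90, -2.58 and -2.61.

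On the other side stood genes of the ribosome. RPS9B, a protein of the small subunit, had 5046 and 3967 against 5485 and 5377 footprint CPM and 12455 against 1012 mRNA CPM. Both [PSI+] footprint values were below both [psi-] values by less than the test could call (adjusted p = 0.273), and TE fell by 3.89 ± 0.31 (adjusted p = 0.00307). RPL26B and RPL23A of the large subunit fell in TE by 3.81 ± 0.80 and 3.66 ± 0.74 (adjusted p = 0.0176 and 0.0156). Their [PSI+] footprint libraries were unlike each other, 4889.9 and 1802 CPM for RPL26B against 6484 and 6459.7 in [psi-], and 80.3 and 29.8 for RPL23A against 96.7 and 93.1. All 3 have a near-identical copy, and the sources used here do not say how reads that match both copies were counted, so their single values are uncertain.

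**Figure D2:**
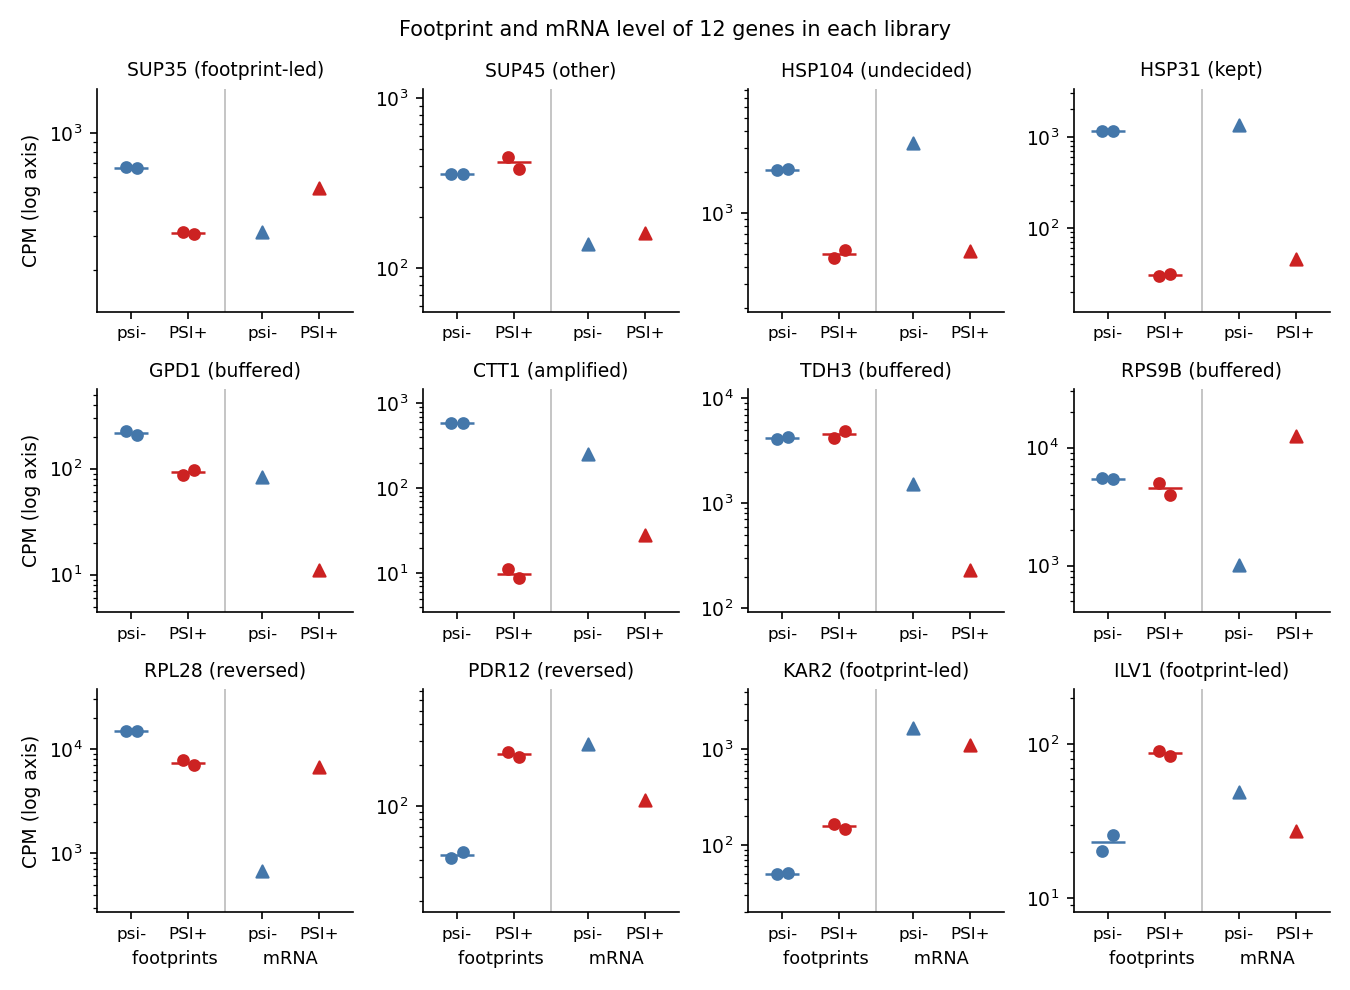
Footprint and mRNA levels of 12 genes in CPM on log axes, with [psi-] in blue and [PSI+] in red, a circle per footprint library, a horizontal line at the mean of each pair and a triangle for the single mRNA library. In HSP31 both levels fall together, in TDH3 and RPS9B the mRNA moves without the footprints, and in SUP35, RPL28, PDR12, KAR2 and ILV1 they move in opposite directions.

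Footprints moved against the mRNA by 2-fold or more in 54 genes. The 21 with less mRNA had medians of -1.36 for mRNA and 1.36 for footprints, and the 33 with more mRNA 1.38 and -1.25. PDR12, a plasma membrane pump that exports weak organic acids, had 248 and 230.1 against 41.5 and 45.8 footprint CPM and 112 against 286 mRNA CPM. Its footprints rose by 2.45 ± 0.13 (adjusted p = 0.000335) and its TE by 3.81 ± 0.22 (adjusted p = 0.00304). APE3, a vacuolar aminopeptidase, had 94.6 and 78.5 against 29.1 and 27.4 footprint CPM with 60.3 against 190.1 for mRNA (TE 3.26 ± 0.26, adjusted p = 0.00307). NDE1, a mitochondrial NADH dehydrogenase, had 127 and 239.9 against 72.2 and 83.1 with 147 against 676 for mRNA (TE 3.45 ± 0.53, adjusted p = 0.00761). No footprint value of these 3 genes overlapped between the strains, although the [PSI+] values of NDE1 were themselves far apart. The genes were picked by size of TE change within the class, which favours such separation.

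Among the reversed genes with more mRNA and 100 or more reads in each mRNA library, the 3 with the largest falls in TE were RPL28, RPL29 and RPL40A of the large ribosomal subunit. RPL28, which has no second copy, had 7906 and 6973 against 14829.7 and 14984 footprint CPM and 6667 against 676 mRNA CPM (TE -4.31 ± 0.27, adjusted p = 0.00304). RPL29, also a single gene, had 921 and 891 against 1965 and 1961 with 604 against 58.2 for mRNA (TE -4.49 ± 0.23, adjusted p = 0.00304). Footprints of both were lower in each [PSI+] library, with changes of -1.0 and -1.12, while their mRNA changes were 3.3 and 3.38. RPL40A, whose product is made as a fusion with ubiquitin, had 806 and 409 against 3131 and 3241 with 1313 against 408 for mRNA (TE -4.08 ± 0.58, adjusted p = 0.00624), and shares its sequence with a copy.

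Amplified genes were few, 24 with less mRNA and 1 with more. The 24 had median changes of -2.90 for mRNA and -5.31 for footprints, so that their footprints were lower still than their mRNA. CPM values this low include the 1 count that stands on every deposited value, which makes 2 in each summed [PSI+] footprint library. EGO4, a small protein named for the EGO complex of the vacuole, had 6.12 and 3.58 against 279.6 and 302 footprint CPM and 36.8 against 227 mRNA CPM (TE -3.32 ± 0.34, adjusted p = 0.00353). SSA3, a stress-induced Hsp70, had 5.71 and 3.28 against 199.7 and 195 with 34.5 against 205 for mRNA (TE -2.93 ± 0.33, adjusted p = 0.00397). The footprint changes of -5.94 and -5.50 went well past the mRNA changes of -2.63 and -2.57, and neither gene overlapped between the strains. URA10, a minor orotate phosphoribosyltransferase, had 0 footprint reads in both [PSI+] libraries against 113 and 107 in [psi-], which against a floor of 3 reads over the group is at least 65.1-fold lower, and an mRNA change of -1.48. The gene with more mRNA was CSS1, named here after its values were seen. It rests on 43 footprint reads in [PSI+] and 5 in [psi-], with changes of 1.03 for mRNA and 2.88 for footprints (TE 1.85, adjusted p = 0.0304). The amplified class held 51 genes without [PSI+] footprint replicate 1, 53 without [PSI+] replicate 2, 15 without [psi-] replicate 1 and 16 without [psi-] replicate 2.

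In 163 genes the footprints moved with an mRNA change of under 2-fold. The 4 RNAs of the count that are not translated are among them and are described last. TE fell in 88, with median changes of 0.12 for mRNA and -1.34 for footprints, and rose in 75, with medians of -0.36 and 1.35. PMP2, a small proteolipid that regulates the plasma membrane proton pump, had 56.3 and 20.3 against 278 and 364 footprint CPM with 237 against 216 for mRNA (TE -3.24 ± 0.72, adjusted p = 0.0203). TAH1, a cofactor of Hsp90, had 101 and 142 against 428 and 425 with 110.4 against 70.2 for mRNA (TE -2.46 ± 0.32, adjusted p = 0.00539). SUP35 is in the same group. Without a [psi-] footprint library, replicate 1 or replicate 2, the class held 76 genes, and without [PSI+] replicate 1 or 2 it held 288 or 298.

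Of the 66 amino acid synthesis genes 4 were footprint-led in either direction, against 163 of all 3906 genes and 9 of 45 cell wall genes. The 3 genes named next were picked by size of TE change among footprint-led genes with higher TE, and do not stand for a gene list. ILV1, threonine deaminase, had 91.3 and 83.6 against 20.2 and 25.9 footprint CPM with 27.3 against 49.1 for mRNA (TE 2.77 ± 0.30, adjusted p = 0.0037). ARG7, a mitochondrial enzyme of ornithine synthesis, had 73.0 and 122 against 20.5 and 15.1 with 161 against 176 for mRNA (TE 2.60 ± 0.48, adjusted p = 0.0121). MRH1, a plasma membrane protein, had 100.3 and 80.6 against 24.8 and 25 with 159.6 against 264 for mRNA (TE 2.58 ± 0.26, adjusted p = 0.00349). Every [PSI+] footprint value of these genes lay above every [psi-] value, and their mRNA was somewhat lower in [PSI+].

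Genes of the ribosome mostly had more mRNA in [PSI+], while their footprints, like those of most genes, stayed near the [psi-] level. Of the 123 cytosolic ribosomal protein genes, TE fell in 88 and rose in 0, against 907 and 683 of all 3906 genes. Their median changes were 2.13 for mRNA, -0.21 for footprints and -2.40 for TE, against 0.04, 0.01 and -0.08 over all genes. At least 2-fold more mRNA was found in 103, against 20.4% of all 3906 genes. Footprints were within 2-fold in 108. That is near the share over all 3906 genes, of which 15.4% moved by 2-fold or more. On the scale of log2 footprint over mRNA, the median level of the ribosomal protein genes stood 2.89 above that of all genes in [psi-]. In [PSI+] it stood 0.50 above. The count that rose was 0 in DESeq2 as well, 1 at an unadjusted p under 0.05, 1 with upper-quartile factors or the [PSI+] runs kept separate, 2 without [PSI+] footprint replicate 1 and 4 without [PSI+] replicate 2. Among the 20 with a single copy TE fell in 19 (median -2.51), and among the 103 with a copy in 69 (median -2.31). Classes were 75 buffered, 7 reversed, 1 kept, 20 undecided, 3 footprint-led and 17 without a 2-fold mRNA change or a called footprint lead. RPL23B was the lowest in TE of all genes (-4.84 ± 0.51, adjusted p = 0.00368). The highest of the list, RPS26A (0.71 ± 1.14, adjusted p = 0.649), rests on unlike [PSI+] libraries (1589.6 and 339 CPM against 1015 and 986). Its TE change is -0.82 (adjusted p = 1.6e-05) without [PSI+] replicate 1.

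Factors that assemble ribosomes behaved likewise, with medians of 1.82 for mRNA, 0.26 for footprints and -1.63 for TE. TE fell in 97 of 115 (84.3%) and rose in 2 (1.74%), against 23.2% and 17.5% of all 3906 genes. The number that fell was 63 without [psi-] footprint replicate 1 and 62 without [psi-] replicate 2. RRS1, needed for the large subunit, had 424 and 412 against 835 and 842 footprint CPM and 272 against 20.8 mRNA CPM (TE -4.71 ± 0.23, adjusted p = 0.00304). NSR1, a nucleolar protein of rRNA processing, had 1323 and 1329 against 1743 and 1654 with 359 against 39.3 for mRNA (TE -3.55 ± 0.23, adjusted p = 0.00304). Their mRNA changes were 3.71 and 3.19, and both [PSI+] footprint values lay below both [psi-] values in each. NOP1, the methyltransferase fibrillarin, had more footprints in both [PSI+] libraries (2321 and 2358 against 1322 and 1355 CPM), but less than its mRNA would give (TE -0.88 ± 0.22, adjusted p = 0.0274), a call lost under 6 of the 14 alternatives. RRP7, of small subunit processing, went the other way (TE 1.43 ± 0.24, adjusted p = 0.00929), a call lost without [psi-] replicate 1 (adjusted p = 0.0548), with the [psi-] footprints summed (0.0519) and in DESeq2 (0.0673). The number that rose was 5 without either [PSI+] replicate.

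Other parts of the protein synthesis machinery had TE medians closer to 0. TE fell in 4 of 7 genes of RNA polymerase I, in 13 of 25 initiation factors and in 21 of 54 mitochondrial ribosomal protein genes (medians -1.18, -0.96 and -0.76). The shares that fell were 57.1%, 52% and 38.9%, against 23.2% of all 3906 genes. TE rose in 2 initiation factors (8%) and 3 mitochondrial ribosomal protein genes (5.56%), against 17.5% of all 3906 genes. For initiation factors, TE rose in 4, 4, 1 and 1 and fell in 16, 17, 6 and 6 without [PSI+] footprint replicate 1, [PSI+] replicate 2, [psi-] replicate 1 and [psi-] replicate 2, in that order. For mitochondrial ribosomal proteins, TE rose in 5, 7, 0 and 2 and fell in 31, 35, 11 and 10 without [PSI+] footprint replicate 1, [PSI+] replicate 2, [psi-] replicate 1 and [psi-] replicate 2, in that order. The fall of polymerase I genes was found in 2 without either [psi-] library. TIF35, a subunit of the initiation factor eIF3, had 949 and 1424 against 1586 and 1589 footprint CPM and 3433 against 676 mRNA CPM (TE -2.76 ± 0.38, adjusted p = 0.00586). TIF4632, a gene of the initiation factor eIF4G, rose in TE by 1.69 ± 0.23 (adjusted p = 0.00593). 

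Among 21 aminoacyl-tRNA synthetases 1 rose and 3 fell, among 11 elongation factors 2 rose and 3 fell, and among 20 termination and surveillance factors 4 rose and 5 fell. Over all 3906 genes 17.5% rose and 23.2% fell, so that the elongation factors (18.2% and 27.3%) and the termination and surveillance factors (20% and 25%) were near the background. For synthetases, TE rose in 6, 8, 0 and 0 and fell in 10, 10, 1 and 1 without [PSI+] footprint replicate 1, [PSI+] replicate 2, [psi-] replicate 1 and [psi-] replicate 2, in that order. For elongation factors, TE rose in 6, 4, 1 and 1 and fell in 3, 4, 0 and 0 without [PSI+] footprint replicate 1, [PSI+] replicate 2, [psi-] replicate 1 and [psi-] replicate 2, in that order. For the termination and surveillance list, TE rose in 5, 6, 1 and 0 and fell in 9, 8, 2 and 2 without [PSI+] footprint replicate 1, [PSI+] replicate 2, [psi-] replicate 1 and [psi-] replicate 2, in that order. In the last list PUB1, an RNA-binding regulator of mRNA decay, was footprint-led like SUP35, with 946 and 1089.7 against 2515 and 2517 footprint CPM at 271 against 226 mRNA CPM (TE -1.57 ± 0.24, adjusted p = 0.00773). That call was lost with the [psi-] footprints summed (adjusted p = 0.0642) or either of them left out (0.0653 and 0.0654).

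**Figure D3:**
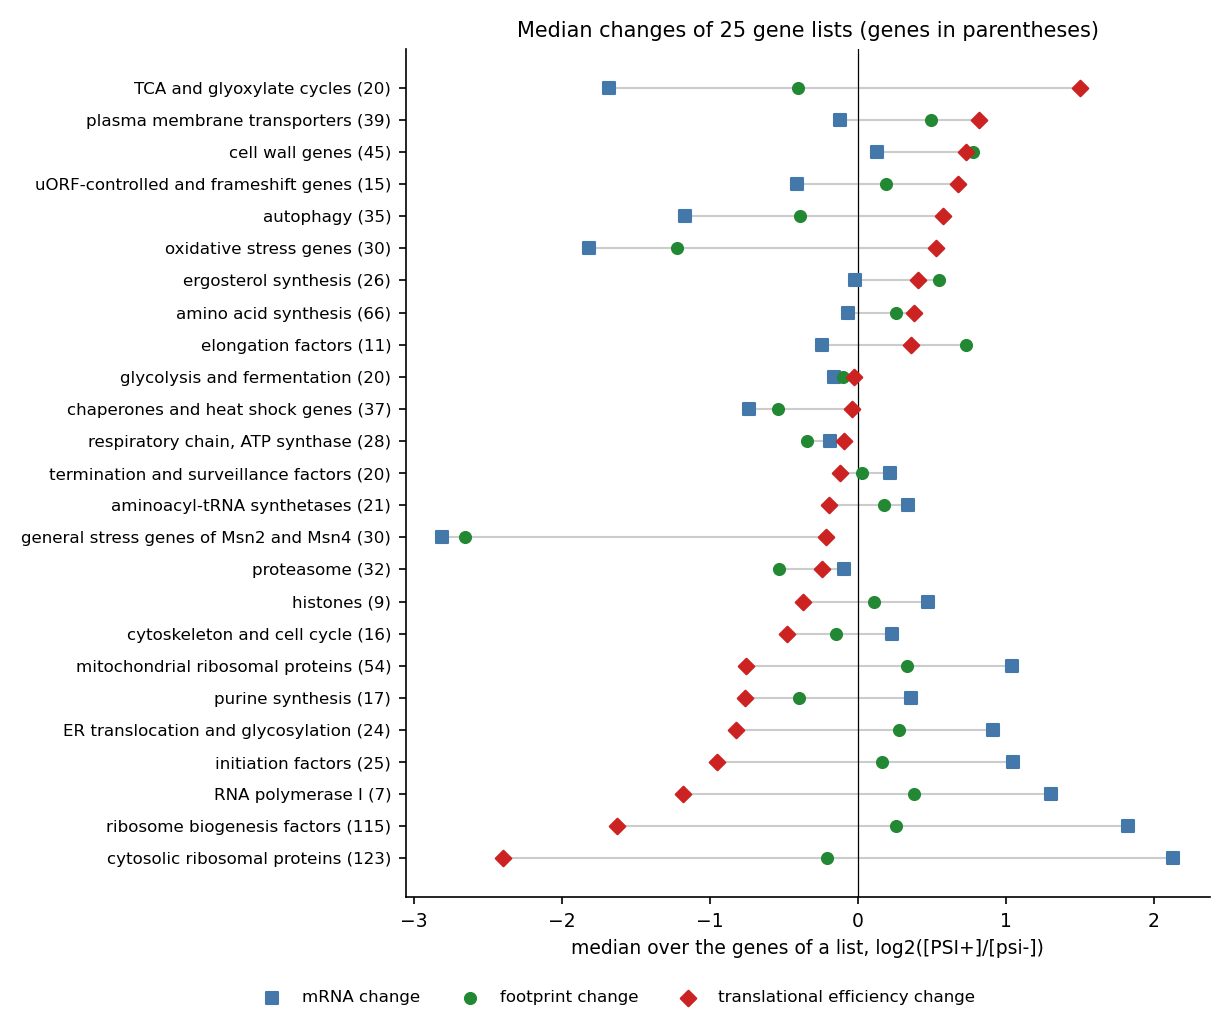
Median log2 change of [PSI+] over [psi-] in 25 gene lists, with squares for mRNA, circles for footprints and diamonds for TE. Ribosomal protein and biogenesis genes have mRNA medians of 2.13 and 1.82 with footprint medians near 0, while the genes of Msn2 and Msn4 have -2.81 and -2.66.

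In general stress genes the loss of mRNA was seen in the footprints as well. Of 30 general stress genes, targets of the transcription factors Msn2 and Msn4, 28 had at least 2-fold less mRNA and 29 had called falls in footprints, with medians of -2.81 and -2.66. Over all features tested, 23.3% had at least 2-fold less mRNA and 17.9% had called falls in footprints. Among the 30 genes TE rose in 4 (13.3%) and fell in 7 (23.3%), near the 17.5% and 23.2% of all 3906 genes. The median TE change was -0.22, and 0.05 with upper-quartile factors. The classes were 6 kept, 7 amplified, 4 buffered and 11 undecided. For this list, TE rose in 9, 10, 2 and 3 and fell in 14, 11, 6 and 6 without [PSI+] footprint replicate 1, [PSI+] replicate 2, [psi-] replicate 1 and [psi-] replicate 2, in that order.

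CTT1, the cytosolic catalase, had 11 and 8.65 against 588 and 585 footprint CPM and 28.4 against 256 mRNA CPM, and TE fell by 2.74 ± 0.25 (adjusted p = 0.00326). HSP12, a membrane-protecting small heat shock protein, had 13.5 and 20 against 1802 and 1781 with 22.4 against 685 for mRNA (TE -1.79 ± 0.34, adjusted p = 0.0126). The strains did not overlap in either gene, and the footprint changes of -5.91 and -6.72 lay below the mRNA changes of -3.17 and -4.93. The other amplified genes of the list were PGM2, GAD1, PNC1, OM45 and TSL1, with TE changes of -2.45, -2.47, -2.08, -1.88 and -1.11. TPS1, trehalose phosphate synthase, was kept, with 353 and 297 against 1802 and 1796 footprint CPM and 152 against 1039 mRNA CPM (TE 0.30 ± 0.25, adjusted p = 0.363), though a rise in TE was called without [PSI+] footprint replicate 2 (adjusted p = 0.000898). GPD1, of glycerol synthesis, was buffered, with 87.7 and 97.3 against 225 and 209.6 footprint CPM and 11.1 against 83.2 mRNA CPM (TE 1.67 ± 0.24, adjusted p = 0.00667). The list thus holds genes of all 3 kinds, while its footprints were lower in nearly every member.

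Oxidative stress genes lost mRNA and footprints to a lesser degree (medians -1.82 and -1.23). TE rose in 12 of 30 (40%) and fell in 3 (10%), against 17.5% and 23.2% of all 3906 genes. For oxidative stress genes, TE rose in 14, 14, 6 and 6 and fell in 6, 7, 2 and 2 without [PSI+] footprint replicate 1, [PSI+] replicate 2, [psi-] replicate 1 and [psi-] replicate 2, in that order. OYE2, an NADPH oxidoreductase, had 705 and 652 against 2273 and 2332 footprint CPM and 119 against 2867 mRNA CPM. Its footprints fell by 1.76 ± 0.13 while its mRNA change was -4.59, so that TE rose by 2.82 ± 0.23 (adjusted p = 0.00307). TSA1, the main peroxiredoxin, rose in TE by 1.09 ± 0.22 (adjusted p = 0.0153), a call lost under 5 of the 14 alternatives. TRX2, a thioredoxin, was kept, with changes of -2.53 for mRNA and -2.80 for footprints.

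Among 37 chaperones TE rose in 5 (13.5%) and fell in 9 (24.3%), near the 17.5% and 23.2% of all 3906 genes. Footprints fell in 17, against 17.9% of all features tested. SSA3 and SSA4 were the only 2 amplified genes of the list (TE -2.93 and -2.88). SSE2, HSP78 and HSP31 were kept (TE 0.09, 0.46 and -0.35). For chaperones, TE rose in 13, 16, 2 and 2 and fell in 14, 14, 5 and 5 without [PSI+] footprint replicate 1, [PSI+] replicate 2, [psi-] replicate 1 and [psi-] replicate 2, in that order. HSC82, the constitutive Hsp90, was buffered, its footprints overlapping between the strains, with 3297 and 1832 against 2097 and 2209 footprint CPM and 658 against 2866 mRNA CPM (TE 2.38 ± 0.50, adjusted p = 0.0175). HSP10, the mitochondrial co-chaperonin, was reversed, with 292 and 268 against 862 and 901 and 742 against 199 mRNA CPM (TE -3.56 ± 0.22, adjusted p = 0.00304). SSB1, the ribosome-bound Hsp70, cannot be placed, since its [PSI+] footprint libraries gave 7603 and 2033 CPM against 1606 and 1657 in [psi-], and its TE change was called without [PSI+] replicate 2 (1.93, adjusted p = 1.98e-09) and with the fixed coefficient of variation (1.28, adjusted p = 0.0432). The same holds for RPS26A above, TRR1 (1001 and 1937 against 2926 and 2872) and CWP2 (456 and 1434 against 602 and 615).

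In the TCA and glyoxylate cycles 17 of 20 genes had at least 2-fold less mRNA, against 18% of all 3906 genes. TE rose in 13 (65%) and fell in 2 (10%), against 17.5% and 23.2% of all 3906 genes. The medians were -1.69 for mRNA, -0.41 for footprints and 1.5 for TE. LSC1, a subunit of succinyl-CoA ligase, had 57.5 and 38.5 against 61.4 and 53.9 footprint CPM and 9.73 against 103 mRNA CPM (TE 3.12 ± 0.41, adjusted p = 0.00539). Its footprints overlapped between the strains while its mRNA change was -3.40. No fall in TE was called in the list without either [psi-] footprint library, replicate 1 or replicate 2. Autophagy genes had medians of -1.17, -0.39 and 0.57, with TE higher in 12 of 35 (34.3%) and lower in 2 (5.71%). For autophagy genes, TE rose in 17, 16, 6 and 6 and fell in 2, 3, 0 and 1 without [PSI+] footprint replicate 1, [PSI+] replicate 2, [psi-] replicate 1 and [psi-] replicate 2, in that order. APE1, a vacuolar aminopeptidase carried by autophagy-related transport, had 66.0 and 69.2 against 1018 and 1032 footprint CPM and 13.6 against 799.7 mRNA CPM (TE 1.95 ± 0.22, adjusted p = 0.00394). It was buffered by the rule although its footprints fell by 3.92 ± 0.13, since its mRNA change was -5.87.

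In glycolysis TE rose in 6 of 20 (30%) and fell in 6 (30%), against 17.5% and 23.2% of all 3906 genes. For glycolysis, TE rose in 8, 10, 3 and 3 and fell in 8, 8, 0 and 0 without [PSI+] footprint replicate 1, [PSI+] replicate 2, [psi-] replicate 1 and [psi-] replicate 2, in that order. TDH3, the main glyceraldehyde-3-phosphate dehydrogenase, had 4222 and 4889 against 4085 and 4236 footprint CPM, which overlapped, and 229 against 1528 mRNA CPM (TE 2.87 ± 0.26, adjusted p = 0.00326). ADH1, alcohol dehydrogenase, was its opposite, with 1634 and 1343 against 1599 and 1558 and 2037 against 790.3 for mRNA (TE -1.45 ± 0.26, adjusted p = 0.0116). That call was lost with the [psi-] footprints summed (adjusted p = 0.0925) and without [psi-] replicate 1 (0.0988) or 2 (0.0925). TDH1, the isoform linked to stress and stationary phase, was amplified (changes of -4.13 for mRNA and -5.42 for footprints), and the copies share much sequence.

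At the cell surface footprints rose without a matching rise of mRNA. Of 45 cell wall genes TE rose in 20 (44.4%) and fell in 0, against 17.5% and 23.2% of all 3906 genes. Their footprints rose in 27 and fell in 1, against 13.8% and 17.9% of all features tested, with medians of 0.13 for mRNA, 0.78 for footprints and 0.73 for TE. Beside the count of 0 from edgeR stand 0 in DESeq2, 1 at an unadjusted p under 0.05, 1 fall with no filter on low counts, 3 falls without [PSI+] footprint replicate 1 and 4 without [PSI+] replicate 2. DESeq2 called 13 rises. Footprint-led members were 9, among them GAS1, a glucan-remodelling enzyme of the wall, with changes of 0.13 for mRNA and 1.55 for footprints, and KRE6, of glucan synthesis, with -0.51 and 1.22. EGT2 and KRE5 were reversed, with mRNA changes of -1.65 and -1.98 and footprint changes of 1.90 and 1.04.

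Plasma membrane transporters had medians of -0.13 for mRNA, 0.49 for footprints and 0.82 for TE. TE rose in 16 of 39 (41%) and fell in 4 (10.3%), against 17.5% and 23.2% of all 3906 genes. The rise was found in 10 without [psi-] footprint replicate 2, and the fall in 1 and 2 without [psi-] replicate 1 and 2. PMA1, the proton pump that powers nutrient uptake, had 3242 and 2652 against 948 and 905 footprint CPM with 13976 against 10724 for mRNA (TE 1.29 ± 0.28, adjusted p = 0.0193). PDR5, a pump for many drugs, had 627 and 643 against 201 and 198 with 1892 against 1261 for mRNA (TE 1.09 ± 0.21, adjusted p = 0.0136). In both genes every [PSI+] footprint value lay above every [psi-] value. Both TE calls were lost without [psi-] replicate 1 (adjusted p = 0.191 and 0.161) or 2 (0.213 and 0.17), and that of PDR5 in DESeq2 as well (0.125).

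Among 24 genes of translocation into the endoplasmic reticulum and of glycosylation, the TE change did not pass in 10. TE fell in 11 (45.8%) and rose in 3 (12.5%), against 23.2% and 17.5% of all 3906 genes. The medians of the list were 0.91 for mRNA, 0.27 for footprints and -0.82 for TE. KAR2, the Hsp70 of the endoplasmic reticulum, was among those that rose, with 167 and 147 against 49.9 and 51.5 footprint CPM and 1119.9 against 1683 for mRNA (TE 2.22 ± 0.23, adjusted p = 0.00363). For the whole list, TE rose in 4, 4, 2 and 2 and fell in 15, 14, 4 and 3 without [PSI+] footprint replicate 1, [PSI+] replicate 2, [psi-] replicate 1 and [psi-] replicate 2, in that order. SBH2, of the translocon, was the lowest of the list, with 99.5 and 82.1 against 390.3 and 395 footprint CPM at 78.4 against 76.0 mRNA CPM (TE -2.16 ± 0.24, adjusted p = 0.00389).

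TE rose in 21 of 66 amino acid genes (31.8%) and fell in 8 (12.1%), with a median of 0.38. It rose in 9 of 26 ergosterol genes (34.6%) and fell in 2 (7.69%), with a median of 0.41. Over all 3906 genes 17.5% rose and 23.2% fell in TE. For amino acid genes, TE rose in 34, 30, 6 and 4 and fell in 17, 17, 5 and 5 without [PSI+] footprint replicate 1, [PSI+] replicate 2, [psi-] replicate 1 and [psi-] replicate 2, in that order. For ergosterol genes, TE rose in 13, 14, 3 and 5 and fell in 8, 9, 0 and 0 without [PSI+] footprint replicate 1, [PSI+] replicate 2, [psi-] replicate 1 and [psi-] replicate 2, in that order. In purine synthesis TE rose in 0 of 17 and fell in 8 (47.1%, median -0.77). Falls in footprints were called in 8 of the 17, against 17.9% of all features tested. At an unadjusted p under 0.05 rises numbered 1 in edgeR, and 1 was called under RLE scaling, under upper-quartile scaling, with 1 subtracted from every count and with the [PSI+] runs kept separate. For purine genes, TE rose in 2, 3, 0 and 0 and fell in 13, 13, 3 and 3 without [PSI+] footprint replicate 1, [PSI+] replicate 2, [psi-] replicate 1 and [psi-] replicate 2, in that order. DESeq2 called 0 rises and 7 falls. ADE8, of the purine pathway, had 139 and 122 against 206 and 217 footprint CPM with 169 against 46.8 for mRNA (TE -2.55 ± 0.23, adjusted p = 0.00322). ADE2 kept its loss, with changes of -1.19 for mRNA and -1.27 for footprints. ERG13, HMG-CoA synthase, had 1273 and 1174 against 762 and 823 with 83.7 against 193 for mRNA (TE 1.83 ± 0.23, adjusted p = 0.00488).

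Genes known for upstream open reading frames or frameshifting, which tie their translation to conditions, had a median TE change of 0.68. TE rose in 8 of 15 (53.3%) and fell in 2 (13.3%), against 17.5% and 23.2% of all 3906 genes. The rise was found in 5 without [psi-] footprint replicate 2. CPA1, an arginine-regulated enzyme with a regulatory upstream reading frame, had 68.9 and 90.7 against 42.8 and 47.0 footprint CPM with 34.1 against 76.7 for mRNA (TE 2.01 ± 0.31, adjusted p = 0.00783). URA1, dihydroorotate dehydrogenase, fell in TE by 2.93 ± 0.34 (adjusted p = 0.00404), with 1763 against 173 mRNA CPM and 345 and 244 against 223 and 215 footprint CPM.

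TE rose in 8 and fell in 5 of 28 genes of the respiratory chain and ATP synthase, rose in 4 and fell in 7 of 32 proteasome genes, rose in 2 and fell in 3 of 16 genes of the cytoskeleton and cell cycle, and fell in 1 of 9 histone genes. For respiratory genes, TE rose in 10, 9, 4 and 4 and fell in 10, 9, 2 and 2 without [PSI+] footprint replicate 1, [PSI+] replicate 2, [psi-] replicate 1 and [psi-] replicate 2, in that order. For proteasome genes, TE rose in 7, 6, 2 and 0 and fell in 19, 16, 0 and 0 without [PSI+] footprint replicate 1, [PSI+] replicate 2, [psi-] replicate 1 and [psi-] replicate 2, in that order. For cytoskeletal genes, TE rose in 3, 4, 0 and 0 and fell in 10, 10, 1 and 1 without [PSI+] footprint replicate 1, [PSI+] replicate 2, [psi-] replicate 1 and [psi-] replicate 2, in that order. For histone genes, TE rose in 1, 3, 0 and 0 and fell in 7, 2, 0 and 0 without [PSI+] footprint replicate 1, [PSI+] replicate 2, [psi-] replicate 1 and [psi-] replicate 2, in that order. Over all 3906 genes 17.5% rose and 23.2% fell in TE. The shares of the proteasome (12.5% and 21.9%) and of the cytoskeleton and cell cycle (12.5% and 18.8%) were near that background. Those of respiratory genes were 28.6% and 17.9%, and 11.1% of histone genes fell. Proteasome footprints fell in 17 of 32, against 17.9% of all features tested, with medians of -0.53 for footprints and -0.09 for mRNA. RPN7, of the proteasome lid, had 449 and 349.7 against 774 and 752 footprint CPM with 907 against 646 for mRNA (TE -1.42 ± 0.28, adjusted p = 0.0142), a call lost without [psi-] replicate 1 (0.0826) or 2 (0.0765).

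**Figure D4:**
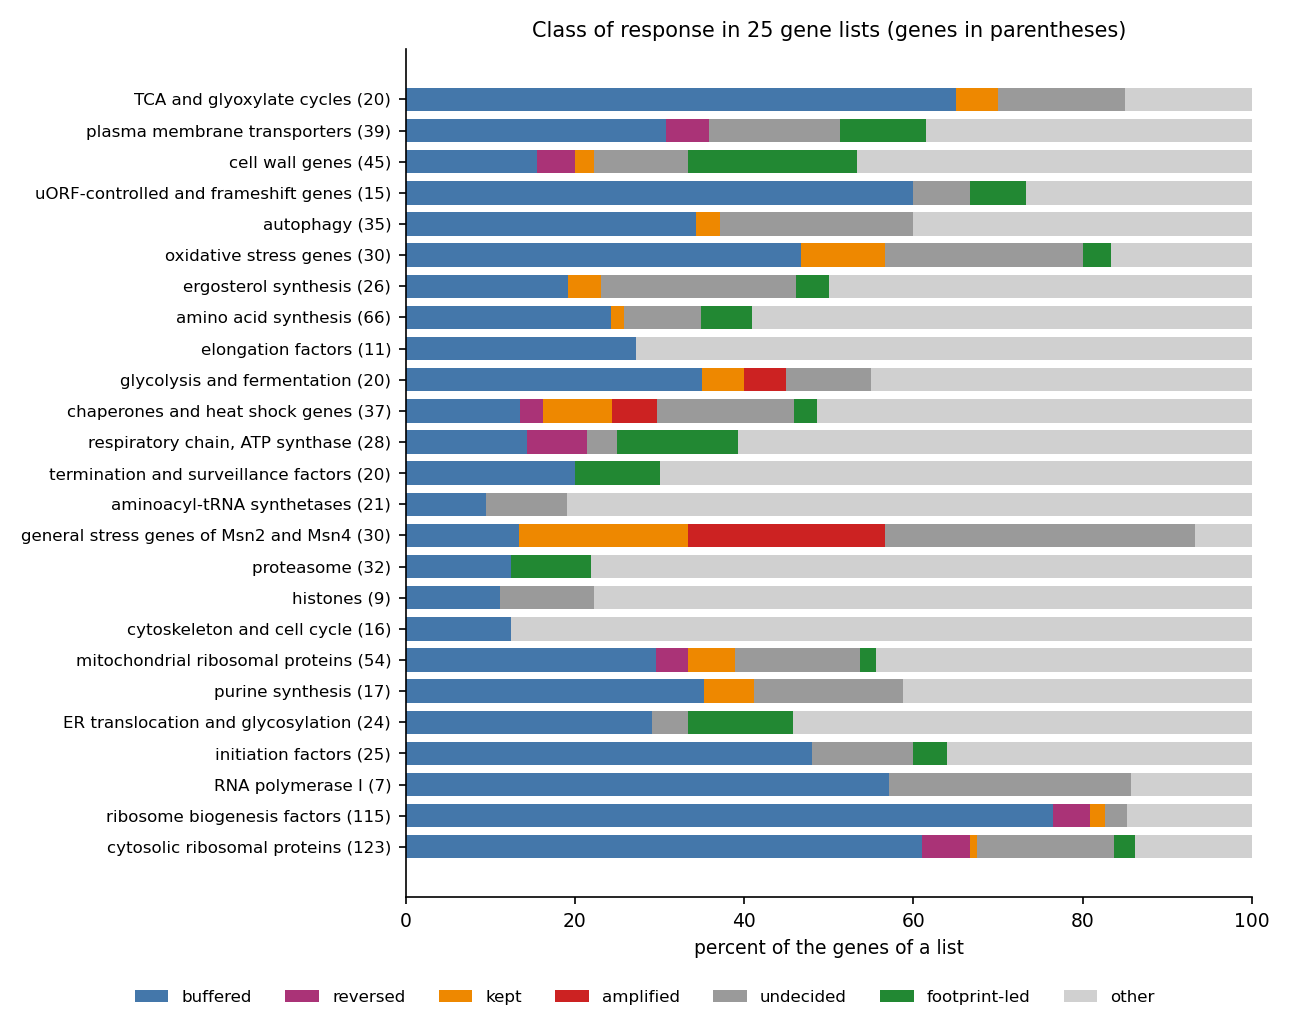
Percent of the genes of each of 25 lists in each class, in the order of the median TE change. Buffered genes fill most of the bars of the TCA cycle (13 of 20), ribosome biogenesis (88 of 115) and ribosomal protein lists (75 of 123), and amplified genes are found in the Msn2 and Msn4 list (7 of 30), chaperones (2 of 37) and glycolysis (1 of 20).

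Coding length went along with the TE change. In 10 groups of near equal size, the median TE change was -0.80 in the shortest genes (78 to 552 bp), where TE rose in 18 and fell in 153, and 0.50 in the longest (3109 to 14733 bp), where it rose in 138 and fell in 33. The median mRNA change went from 0.52 to -0.33 and the median footprint change from -0.26 to 0.22. Ribosomal protein genes were short (median 768 bp), as were reversed genes with more mRNA (696 bp). Buffered genes with less mRNA (1728 bp), footprint-led genes with higher TE (1779 bp) and reversed genes with less mRNA (2088 bp) were longer. The part that length plays in the counts of each list was not tested.

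**Figure D5:**
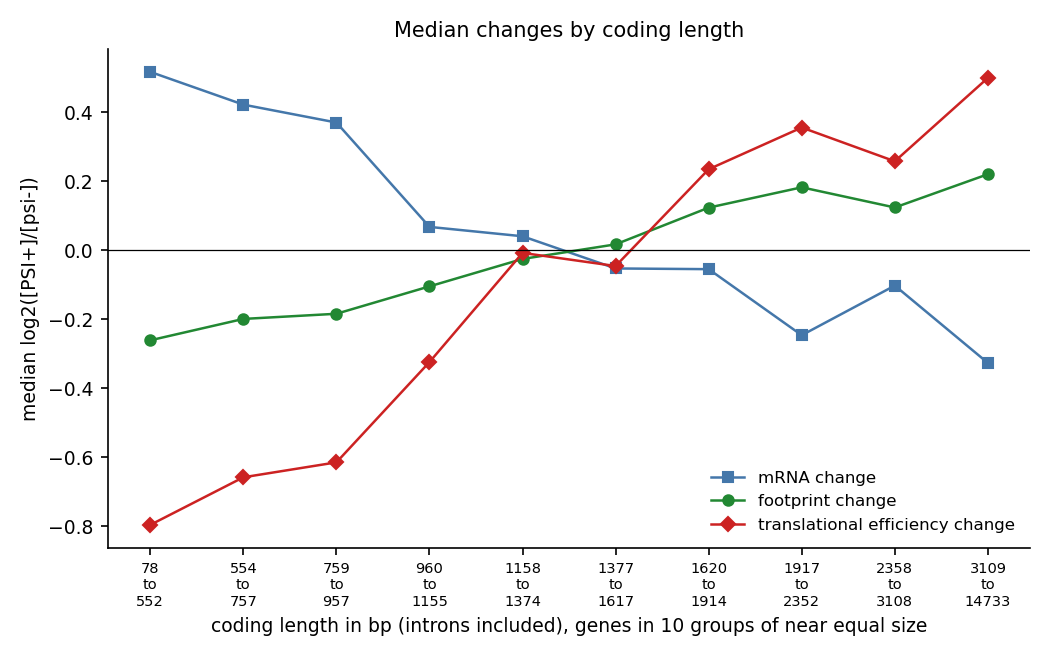
Median log2 change of [PSI+] over [psi-] in 10 groups of genes by coding length, with squares for mRNA, circles for footprints and diamonds for TE. The TE median rises from -0.80 in the shortest genes to 0.50 in the longest.

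The 4 RNAs that are not translated, SCR1, NME1, RPR1 and TLC1, passed the same minimums. SCR1, which forms the RNA core of the signal recognition particle, gave 7495 and 11019 reads in the [PSI+] footprint libraries and 1632 and 1586 in the [psi-] ones, and 350560 and 147989 in mRNA, so that its ratio rose by 2.18 (adjusted p = 0.00488). Its share of the footprint libraries was 0.299% and 0.337% against 0.0471% and 0.0443%. NME1, of RNase MRP, fell by 2.79 (adjusted p = 0.00691), RPR1, of RNase P, rose by 0.91 (adjusted p = 0.0406), and TLC1, the telomerase RNA, rose by 2.93 (adjusted p = 0.00525). All 4 were called, although their ratio is no measure of translation. The part that reads of this kind have in the TE changes of other genes was not tested.

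A further experiment of the study, in synthetic medium, offers other libraries for the same genes. The authors' deposited table gives mean footprint counts of [PSI+] cells with overexpressed SUP35-Cter, the part of Sup35 that acts in termination, and of [PSI+] cells without it. From the authors' deposited table, the median log2 ratio of the former to the latter was -0.03 over the 3906 genes (quartiles -0.26 and 0.24). By the same table it was 0.76 in the 21 reversed genes with less mRNA (quartiles 0.38 and 0.94) and 0.53 in the 75 footprint-led genes with higher TE (quartiles 0.27 and 0.82). In the authors' deposited table the other classes of more than 1 gene lay closer to 0, such as 0.10 in buffered genes with less mRNA, -0.13 in buffered genes with more, -0.26 in kept genes with less mRNA, -0.23 in footprint-led genes with lower TE and -0.20 in amplified genes with less mRNA. The means carry no replicate error here, and these medians are a description without a test.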

How the data were processed

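The deposited table holds whole-number counts of reads per feature, made by the authors with HTSeq (intersection-nonempty), per the deposited description. The submitters' processing notes name Bowtie 0.12.7, HTSeq 0.5.3p3 and DESeq 1.6.1 and the build sacCer2; the sources used here do not say how strand and reads with several matches were handled, so near-identical copies, overlapping and antisense genes are uncertain. Of its 8 columns, 0 were without a sample. The deposited description calls the 4 columns of [PSI+] footprints 2 biological and 2 technical replicates. They were summed in 2 pairs that agree within counting noise (with a chi-square of 1.008 and 1.003 per degree of freedom, against 20.91 to 21.31 between the pairs). Every deposited count includes 1 added count (the lowest value is 1), so a summed library carries 2.

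Counts were fitted in R 4.3.3 with edgeR 4.0.16 (filterByExpr with a minimum count of 10, TMM factors, quasi-likelihood test, Benjamini-Hochberg adjustment over 5437 features). The fit was run first on counts simulated with a common dispersion. There it recovered 16.7% of added TE changes of log2 size 1 and 85.9% of those of size 2. Of 104 calls 7 were false. Most simulated TE changes of 2-fold were thus missed. DESeq2 1.42.0, other factors and filters, a replicate block and leaving out each footprint library were alternatives. An mRNA library cannot be left out, since each strain has 1. The deposited description speaks of biological replicates for [PSI+] footprints, but no label says that replicates of either strain were separate cultures. The p-values therefore reflect the spread of these libraries alone. That spread may be technical, above all in the [psi-] pair (chi-square of 1.283 per degree of freedom). Intervals on mRNA changes cover counting error only.

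The genes followed and the gene lists were chosen with earlier results of these data known. Named genes were SUP35, SUP45 and HSP104, the first 3 of each class and direction by size of change (mean of 50 or more footprint reads, 100 or more reads in each mRNA library), and in each list the lowest and highest TE change and up to 2 more by footprint level. Other genes given as examples of a class were chosen after their values were seen. Where footprint values of named genes are said not to overlap between the strains, the choice by size of change favours this. The share of all genes without overlap was not counted. Symbols and coding lengths (introns included) came from the RefSeq table of assembly R64, which matched 3900 of 3906 genes. Protein identity and promoter sequence were not used here.

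For the synthetic medium (YNB) the authors' deposited table gives other values, mean normalized counts per group, with Bowtie2, cutadapt 1.2.1 and sacCer3 in the submitters' processing notes. Log2 ratios were taken with a pseudocount of 0.5.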

Additional observations from a re-analysis of the deposited data

How the results depend on the processing

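Over all features, TE calls numbered 974 higher and 1113 lower. They were 361 higher in DESeq2, 445 higher and 571 lower with the [psi-] footprints summed, and 428 to 1574 higher and 549 to 1799 lower with 1 footprint library left out. Footprint calls (751 higher, 973 lower) gave 1233, 211, 1182, 133 and 480 higher with upper-quartile factors, in DESeq2, with runs kept separate, with the [psi-] footprints summed and with a fixed coefficient of variation, 455 lower with the [psi-] footprints summed, and 122 to 1564 higher and 421 to 1661 lower with a library left out.

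The classes moved as follows. Kept genes (66) numbered 7 in DESeq2, 2 with the [psi-] footprints summed, 2 with the fixed coefficient, 190 and 20 at mRNA thresholds of 1.5-fold and 3-fold, and 2 to 101 with a library left out. Buffered genes (968) numbered 570 with the sum, 558 at 3-fold and 560 to 1194 with a library left out. Reversed genes (54) numbered 97 at 1.5-fold, 21 at 3-fold and 51 to 84, amplified genes (25) 16 with the sum and 15 to 53, and footprint-led genes (163) 73 with the sum and 76 to 298. Undecided genes (388) numbered 619 in DESeq2, 861 with the sum, 690 with the fixed coefficient, 816 at 1.5-fold, 130 at 3-fold and 89 to 866. Opposed TE and mRNA changes outnumbered changes in the same direction in every fit (1022 against 25, with 615 to 1262 against 15 to 53 over the alternatives). Every fit uses the same mRNA libraries, and error in their ratio moves TE against the mRNA in all of them. The fits therefore cannot show how much of the opposed changes is such error. The cause of the shifts in class size was not tested, beyond the fewer libraries or the stricter threshold.

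With upper-quartile factors the list medians of tRNA synthetases, Msn2 and Msn4 genes, respiratory genes and the proteasome changed sign to 0.0707, 0.0487, 0.17 and 0.0234, and those of termination factors, chaperones and glycolysis (-0.12, -0.04 and -0.03) to 0.15, 0.23 and 0.24. RLE factors gave 0.0123, 0.07 and 0.08 for respiratory genes, chaperones and glycolysis, and 4 further settings moved 1 or more of the last 3 lists to between 0.01 and 0.07. Without [PSI+] replicate 2 TRR1 and CWP2 changed sign to -0.20 and -0.98 (adjusted p = 0.0224 and 6.93e-05), and RPS26A did to -0.82 without [PSI+] replicate 1 (edgeR, adjusted p = 1.6e-05). Without the other [PSI+] library they stood at 0.73, 0.66 and 1.43. Of 80 called named genes, 25 lost the call under 1 or more alternatives, and of the other 45, 35 gained one.

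The labels number the footprint replicates but the deposited [PSI+] columns do not, and deviations of same-numbered libraries were not correlated (-0.0176), so the numbers are not taken as pairs. With the replicate block 1031 features rose and 1190 fell in TE, and 5 named calls were lost. Depth limits low genes: 5 of the 3906 had 3 or fewer footprint reads in a strain.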
